A study of Mus musculus with 60 samples.

Results

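The insulin-like growth factor (IGF) system was followed through 10 genes of the mouse dentate gyrus (DG): the ligands *Igf1* and *Igf2*, the receptors *Igf1r* and *Igf2r*, and the binding proteins *Igfbp2*, *Igfbp3*, *Igfbp4*, *Igfbp5*, *Igfbp6* and *Igfbp7*. They are 10 of the 46480 genes counted in each library, and all 10 were among the 17040 genes with enough counts to be tested. The set was selected on the response of *Igfbp6* to enrichment, that is, on its counts in EE against SH libraries. The housing values of these genes are therefore given as a description. Where a member is said to be past the limits of fold change and FDR for housing, nothing is read from it. The comparison of the dorsal and ventral poles did not enter the choice and was tested. RNA-Seq was made from whole DG tissue of male C57BL6J mice, for which the labels name no transgene or mutation. The mice were weaned on day 22 and spent 8 weeks in standard housing (SH, 3 mice per cage) or in an enriched environment (EE, 12 mice in a larger cage with running wheels and toys that were changed weekly), until collection at 80 days of age. The groups were dorsal SH (4 libraries), dorsal EE (5), ventral SH (4) and ventral EE (5), each library a pool of tissue from several mice, with the dorsal and ventral libraries of a pool from the same mice.

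IGF1 and IGF2 are secreted peptides related to insulin. IGF1R is the receptor tyrosine kinase that carries their signal to the PI3K, AKT and mTOR kinases, whereas IGF2R, the mannose 6-phosphate receptor, takes up IGF2 for breakdown in lysosomes. The IGF-binding proteins hold the ligands outside the cell and either limit or prolong their access to the receptor, and proteases such as pappalysin release the ligand again. In the adult brain IGF1 and IGF2 act on neural stem cells, newborn neurons and memory, and *Igf2* and *Igfbp2* are strongly expressed in the choroid plexus and the meninges.

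*Igfbp6* (chromosome 15, 102144362 to 102149511, plus strand, GRCm38) and *Igfbp5* (chromosome 1, 72857932 to 72874884, minus strand) are the members with the largest housing differences in dorsal DG, in opposite directions, so the 250 bases before the RefSeq start of each are shown 5′ to 3′ from the GRCm38.p6 promoter table, with CG pairs, the sites of most DNA methylation, in capitals. The *Igfbp6* window is chr15:102143936-102144185 on the plus strand and the *Igfbp5* window is chr1:72874866-72875115 on the minus strand.
Igfbp6: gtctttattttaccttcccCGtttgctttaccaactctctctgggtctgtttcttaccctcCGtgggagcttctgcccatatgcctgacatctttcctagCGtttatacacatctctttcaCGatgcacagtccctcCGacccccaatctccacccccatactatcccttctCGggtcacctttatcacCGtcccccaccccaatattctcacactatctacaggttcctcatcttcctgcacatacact
Igfbp5: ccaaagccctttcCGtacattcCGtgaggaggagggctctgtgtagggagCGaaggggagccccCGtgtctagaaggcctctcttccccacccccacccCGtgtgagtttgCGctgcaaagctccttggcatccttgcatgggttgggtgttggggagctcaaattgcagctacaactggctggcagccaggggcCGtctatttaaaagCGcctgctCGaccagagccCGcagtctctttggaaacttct
The *Igfbp6* window held 7 CG pairs and was 49.6% G and C, and the *Igfbp5* window held 10 CG pairs at 58.8%. Over the 32851 windows of the table the median was 6 CG pairs, and 57.0% of windows had 7 or fewer. The largest number among the members was 42, at *Igf1r*. A pair of short motifs were searched on both strands of the 14 windows of the 10 members. The AP-1 motif TGANTCA was in 1 window of *Igf1* and 1 of *Igfbp2*, against 6.75% of all windows. The core TGACG of the cAMP response element (CRE) was in 1 window of *Igf2* and in *Igf2r*, against 17.8% of all windows. Neither motif was in the windows of *Igfbp6* or *Igfbp5*, which says only that these letters are not there.

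Each of the 18 libraries had 22919364 to 28301861 fragments on genes. The granule cell marker *Prox1* was present in each library. The 2 libraries of SH replicate 3 were left out because the study excluded an SH sample for *Xist*, which had 308 and 789 fragments there and at most 16 elsewhere. Levels between libraries are given as CPM, fragment counts scaled to library size with TMM normalization. Because the tissue holds many cell types, fewer cells of a type and less RNA per cell cannot be told apart. Choroid plexus markers differed widely between libraries: the summed CPM of 10 markers was 146 to 431 in dorsal SH, 146 to 217 in dorsal EE, 640 to 1759 in ventral SH and 646 to 2164 in ventral EE. Dorsal DG was punched from coronal and ventral DG from horizontal sections, so region and cutting plane cannot be told apart.

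Per length of transcript, 4 of the 6 binding proteins had the highest medians of the members. In TPM, a unit scaled for transcript length and library total, the medians over 18 libraries ran from 14.6 for *Igfbp5*, 9.73 for *Igfbp2*, 7.06 for *Igfbp7* and 6.81 for *Igfbp4* to 4.83 for *Igf2*, 4.06 for *Igf1r*, 3.53 for *Igf2r*, 3.13 for *Igfbp6*, 2.13 for *Igfbp3* and 0.630 for *Igf1*. Several neighbours in this order were not separated: *Igfbp5* was above *Igfbp2* in 10 of 18 libraries, *Igfbp7* above *Igfbp4* in 10, *Igf2* above *Igf1r* in 10, *Igf2r* above *Igfbp6* in 7 and *Igfbp6* above *Igfbp3* in 11. *Igf1r* was above *Igf2r* and *Igfbp3* above *Igf1* in 18 of 18. The head of the order depended on the pole, since *Igfbp5* led in both dorsal groups and *Igfbp2* in both ventral groups. *Igfbp6* had rank 8 of the members within dorsal SH and rank 5 within dorsal EE.

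**Figure D1:**
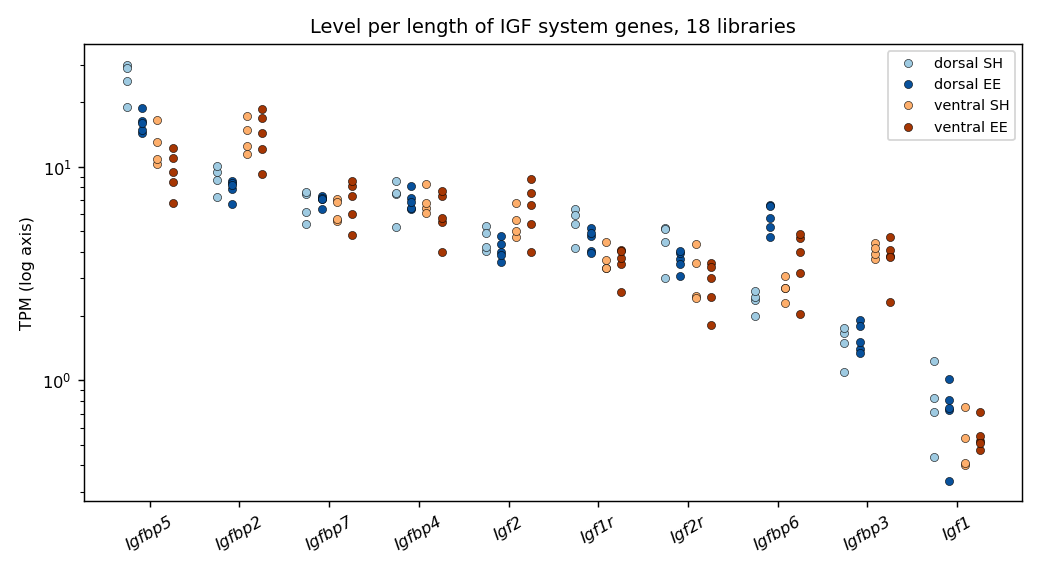
TPM of each of the 10 genes (log axis, ordered by median over 18 libraries), 1 point per library, coloured by group. *Igf1* lies lowest, at a median of 0.630 TPM, and *Igfbp5* highest, at a median of 14.6 TPM.

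To ask how the system differs between the poles of the DG, dorsal and ventral libraries were compared with the differences of SH and EE averaged. Of the 10 members, *Igfbp2*, *Igfbp3* and *Igf2* were higher in ventral DG and *Igfbp5* was higher in dorsal DG (a fold change of 20% or more at an FDR under 0.05). This is 4 of 10, where 32.7% of all tested genes passed the same limits, 15.9% with dorsal and 16.8% with ventral higher, so the share of members that passed was near that of genes in general. The median log2 fold change of the members was 0.0010 and that of all tested genes was -0.0046. The median size of the difference was 0.25 for the members and 0.19 for all tested genes.

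**Figure D2:**
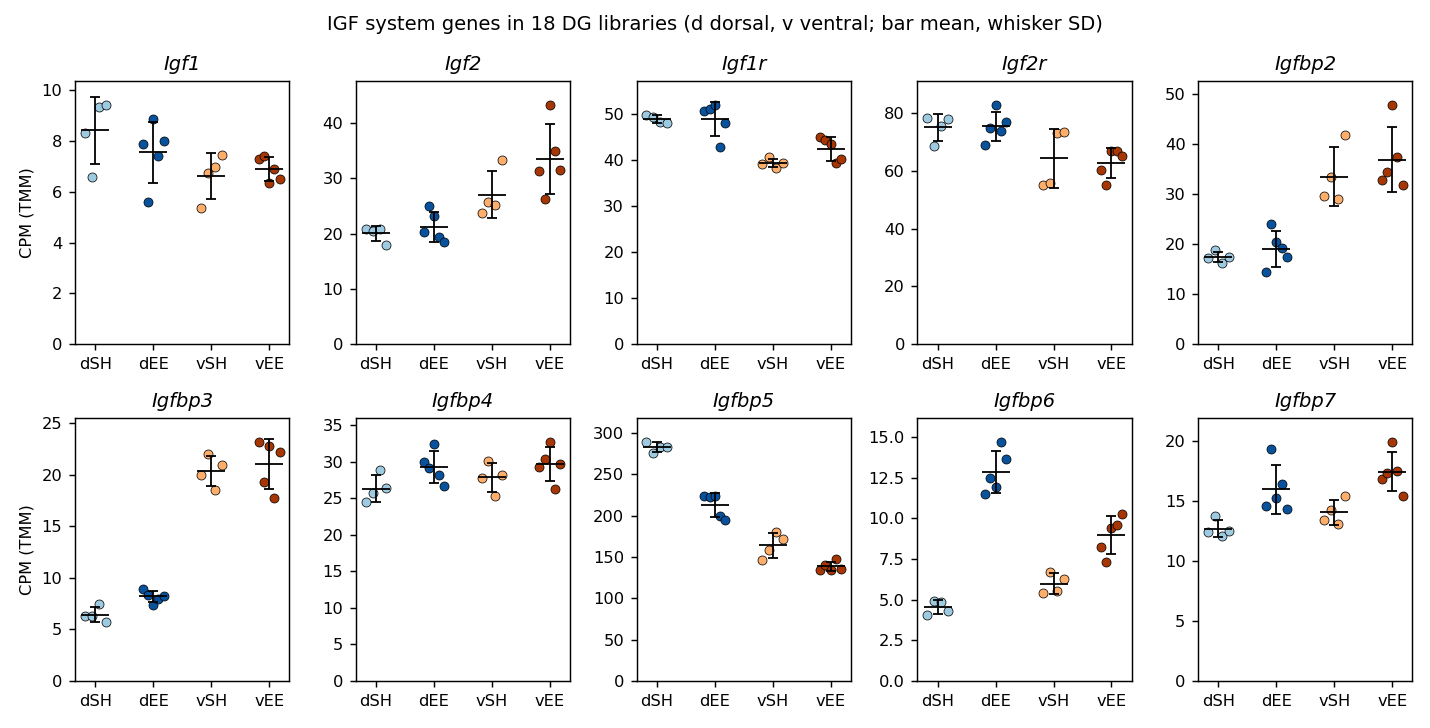
CPM of each gene in the 4 libraries of dorsal SH (dSH) and ventral SH (vSH) and the 5 of dorsal EE (dEE) and ventral EE (vEE), with the mean as a bar and the SD as whiskers; each vertical axis starts at 0. *Igfbp3* separates the poles in both housings, and *Igfbp6* is lowest in dorsal SH (mean 4.53 CPM) and highest in dorsal EE (mean 12.9 CPM).

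Among the ligands, *Igf2* (chromosome 7, 142650766 to 142666816, minus strand) was at 20.9, 20.4, 20.9 and 18.0 CPM in dorsal SH and at 20.3, 24.9, 23.1, 19.3 and 18.5 CPM in dorsal EE. The ventral SH libraries were at 23.8, 25.8, 25.1 and 33.2 CPM, and the ventral EE libraries at 31.4, 26.3, 43.3, 34.9 and 31.5 CPM. The poles did not overlap within either housing, as for 38.4% of all tested genes in SH and 28.8% in EE, and the ventral library was the higher in each of the 9 pools. The log2 fold change of dorsal over ventral *Igf2* was -0.55 (SE 0.083, edgeR adjusted p = 7.39e-06), or 1.46-fold higher in ventral DG. *Igf1* was counted by only 135 to 253 fragments a library. The dorsal means were 8.42 ± 1.32 CPM (SD, n = 4) for SH and 7.55 ± 1.21 (n = 5) for EE, and the ventral means were 6.63 ± 0.893 (n = 4) for SH and 6.90 ± 0.470 (n = 5) for EE. Its regional log2 fold change of 0.24 (SE 0.085, edgeR adjusted p = 0.0183) had the dorsal library higher in 7 of 9 pools and was under the 20% limit, which it passed without SH replicate 2 (0.29) or EE replicate 2 (0.29).

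Choroid plexus markers moved with ventral *Igf2* and *Igfbp2*. All 10 markers of that list were higher in ventral DG. *Ttr*, the transthyretin gene and a defining marker, was at 347 to 1304 CPM in ventral libraries and at 5.12 to 172.9 CPM in dorsal ones, and the defining markers *Folr1* and *Kl* were at 0 in no library. Ventral EE replicate 3 was the highest library of the 18 for *Ttr* (1304 CPM), *Igf2* (43.3 CPM) and *Igfbp2* (47.8 CPM). In dorsal SH replicate 1, the dorsal library with the most *Ttr* (172.9 CPM), *Igf2* was at 20.9 CPM and *Igfbp2* at 17.2 CPM, within the range of the other dorsal libraries. The part of these markers in the regional differences of *Igf2* and *Igfbp2* was not tested. Without EE replicate 3 the log2 fold change was -0.51 for *Igf2* and -0.90 for *Igfbp2*, and without SH replicate 1 it was -0.58 and -0.97. Without SH replicate 5, whose ventral library had 994 CPM of *Ttr*, it was nearer to no difference, at -0.46 and -0.88. Of 9 meningeal fibroblast markers, 3 were higher in ventral DG, and the summed level was 43.6 to 65.0 CPM in dorsal and 62.1 to 79.9 CPM in ventral libraries.

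**Figure D3:**
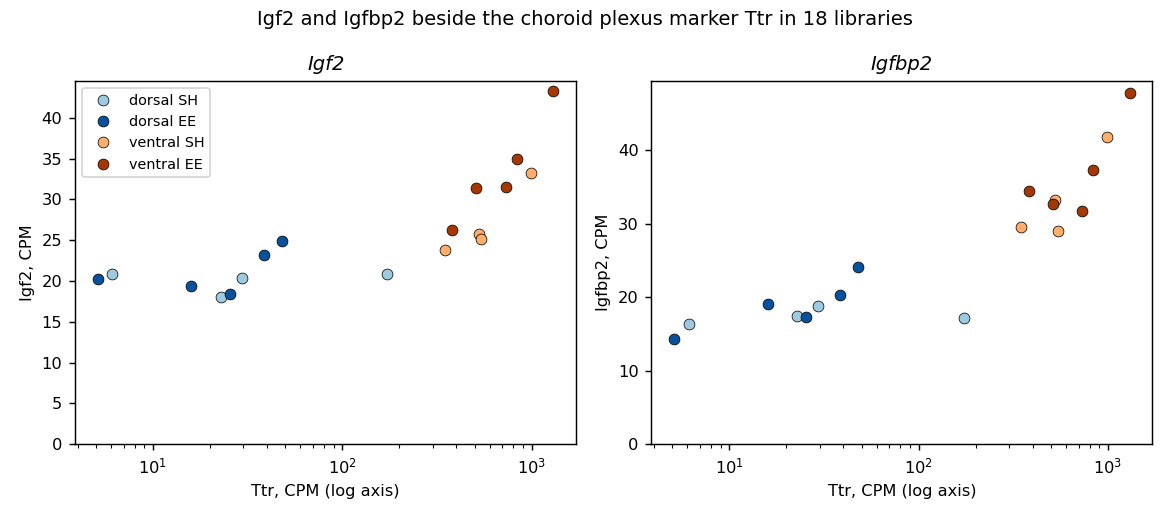
CPM of *Igf2* (left) and *Igfbp2* (right) against CPM of the choroid plexus marker *Ttr* (log axis) in 18 libraries coloured by group. Ventral EE replicate 3, at 1304 CPM of *Ttr*, is highest on both vertical axes, and the dorsal library at 172.9 CPM of *Ttr* lies with the other dorsal libraries.

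The receptors had smaller regional log2 fold changes than the ligand *Igf2*, toward dorsal DG. *Igf1r*, on chromosome 7, had dorsal means of 49.0 ± 0.859 CPM (SD, n = 4) for SH and 49.0 ± 3.65 (n = 5) for EE, and ventral means of 39.4 ± 0.942 (n = 4) and 42.5 ± 2.56 (n = 5). The dorsal library was the higher in 9 of 9 pools, with a log2 fold change of 0.26 (SE 0.038, edgeR adjusted p = 4.04e-06), just under the 20% limit, which it passed without SH replicate 2 (0.26), SH replicate 5 (0.26) or EE replicate 4 (0.27). *Igf2r*, on chromosome 17, was also higher in the dorsal library of 9 of 9 pools, with a log2 fold change of 0.24 (SE 0.058, edgeR adjusted p = 0.000975) that was under the limit as well, and it passed without SH replicate 4 (0.28) or SH replicate 5 (0.27). Its ventral SH libraries were spread over 55.2, 55.9, 73.0 and 73.5 CPM. With *Igf1*, these genes bring the members with an FDR under 0.05 to 7 of 10 when no fold limit is set, where 58.4% of all tested genes passed.

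The binding proteins held both the largest ventral and the largest dorsal difference of the system. *Igfbp3* (chromosome 11, 7206086 to 7213923, minus strand), the main IGF carrier of the blood, was at 6.31, 6.25, 7.47 and 5.70 CPM in dorsal SH and at 8.95, 8.37, 7.36, 7.99 and 8.29 CPM in dorsal EE. The ventral SH libraries were at 19.95, 22.1, 18.6 and 21.0 CPM, and the ventral EE libraries at 23.2, 19.3, 22.8, 17.7 and 22.2 CPM. Each ventral library was above each dorsal library, which held for 18.9% of all tested genes in either direction. *Igfbp3* was 2.86-fold higher in ventral DG (log2 fold change -1.51, SE 0.063, edgeR adjusted p = 6.25e-15). Hilar mossy cell markers shared this direction, with 2 of 4 higher in ventral DG. Their summed level was 27.3 to 39.2 CPM in dorsal and 79.0 to 122 CPM in ventral libraries. Other lists shared it too, among them all 10 choroid plexus markers. Within ventral EE the mossy cell sum was lowest in replicate 3 (79.0 CPM), where *Igfbp3* was at 22.8 CPM. That sum was highest in replicate 4 (122 CPM), where *Igfbp3* was lowest, at 17.7 CPM. Within ventral SH both were highest in replicate 2, the sum at 122 CPM and *Igfbp3* at 22.1 CPM. The part of these markers in the regional difference of *Igfbp3* was not tested.

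*Igfbp2* and *Igfbp5* are neighbours on chromosome 1 (72824503 to 72852474 on the plus strand and 72857932 to 72874884 on the minus strand), 5458 bases apart at their ends, and they differed in opposite directions. *Igfbp2* was at 17.2, 18.8, 16.3 and 17.4 CPM in dorsal SH and at 14.4, 24.1, 20.3, 19.1 and 17.3 CPM in dorsal EE. The ventral libraries were at 29.5, 33.3, 29.0 and 41.8 CPM for SH and 32.7, 34.5, 47.8, 37.4 and 31.8 CPM for EE. The poles did not overlap, as for 18.9% of all tested genes in either direction. *Igfbp2* was 1.93-fold higher in ventral DG (log2 fold change -0.95, SE 0.092, edgeR adjusted p = 1.08e-08). *Igfbp5*, the most counted member, was at 289, 276, 283 and 283 CPM in dorsal SH and at 224, 223, 223, 200 and 194 CPM in dorsal EE. The ventral libraries were at 146, 158, 180 and 172 CPM for SH and at 134, 141, 135, 147 and 136 CPM. Each dorsal library was above each ventral library, again beside the 18.9% of all tested genes without overlap. *Igfbp5* was 1.63-fold higher in dorsal DG (log2 fold change 0.70, SE 0.042, edgeR adjusted p = 2.58e-12). Granule cell markers shared this direction, with 5 of 6 higher in dorsal DG. Their summed level was 1199 to 1463 CPM in dorsal and 603 to 874 CPM in ventral libraries. Their part in the regional difference of *Igfbp5* was not tested.

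**Figure D4:**
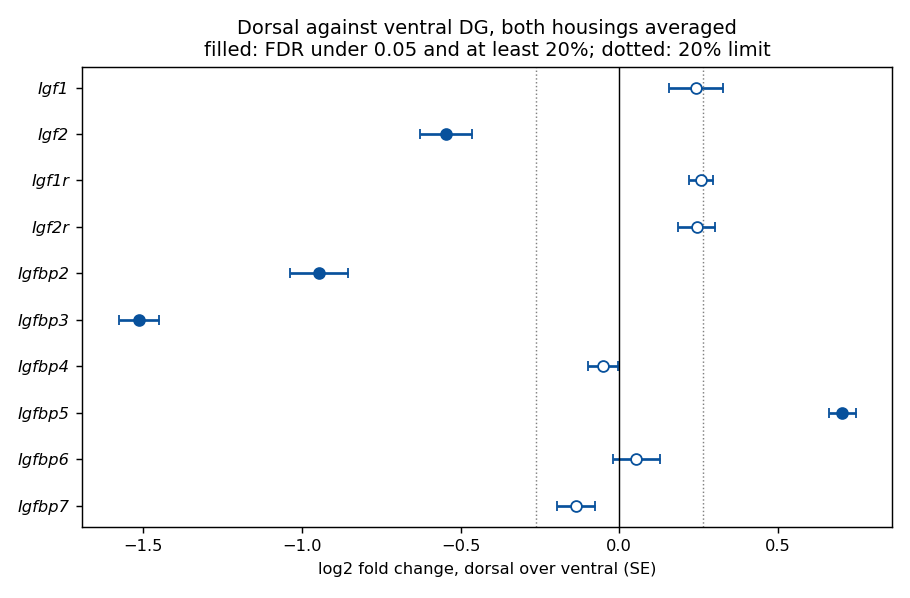
Log2 fold change of dorsal over ventral DG for the 10 genes, averaged over SH and EE, with the standard error as bars; filled points had a fold change of 20% or more at an FDR under 0.05, and dotted lines mark 20%. *Igfbp3* (-1.51) and *Igfbp2* (-0.95) lie farthest to the ventral side and *Igfbp5* (0.70) to the dorsal side.

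*Igfbp4* and *Igfbp7* did not pass the regional limits. *Igfbp4* had SH means of 26.3 ± 1.84 CPM (SD, n = 4) at the dorsal and 27.9 ± 1.95 (n = 4) at the ventral pole, and its log2 fold change was -0.05 (SE 0.048, edgeR adjusted p = 0.361). *Igfbp7*, which binds IGFs weakly and is made by blood vessels, had a log2 fold change of -0.14 (SE 0.060, edgeR adjusted p = 0.0540), with the ventral library higher in 8 of 9 pools. Of its fragments, 6.45% were on the other strand, where *Polr2b* overlaps it, against 0.0723% to 0.460% for the other 9 members. On log2 TPM the sign of both genes turned.

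*Igfbp6* encodes a binding protein that prefers IGF2 over IGF1. Averaged over the housings its regional log2 fold change was 0.05 (SE 0.074, edgeR adjusted p = 0.551), but this mean joined opposite differences. In SH it was lower in dorsal than in ventral DG, at 4.05, 4.94, 4.83 and 4.32 CPM against 5.40, 6.73, 5.55 and 6.28 CPM. In EE it was higher in dorsal DG, at 11.5, 12.5, 11.9, 14.7 and 13.6 CPM against 8.27, 7.29, 9.40, 9.57 and 10.3 CPM. The poles did not overlap in either housing, as for 38.4% of all tested genes in SH and 28.8% in EE. The log2 fold change of dorsal over ventral was -0.41 (SE 0.12) in SH and 0.52 (SE 0.090) in EE. A joint test of both differences gave an edgeR adjusted p of 2.68e-05, which includes the housing response that chose the set and is no independent support. Among the 17040 tested genes, *Igfbp6* alone (0.00587%) had all dorsal libraries below all ventral ones in SH and above all of them in EE, and no gene had the reverse. Nothing is read from this count either, because the housing response chose the set. The *Igfbp6* values rest on 113 to 390 fragments a library.

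The question of how enrichment changes the system is met here by description, since the set was chosen for it, and nothing is read from the counts of genes past the limits that stand beside the values. *Igfbp6* was 2.84-fold higher in EE than SH in dorsal DG (log2 fold change 1.51, SE 0.10) and was also higher in ventral DG (0.59, SE 0.10), with each EE library above each SH library at both poles. *Igfbp5* had the opposite direction, at a log2 fold change of -0.41 (SE 0.058) in dorsal DG, where each EE library was below each SH library, and -0.24 (SE 0.059) in ventral DG, where ventral EE replicate 4 (147 CPM) was above ventral SH replicate 1 (146 CPM). In dorsal DG *Igfbp6* and *Igfbp5* were the 2 members past the limits, beside 0.634% of all tested genes (EE and SH did not overlap for 3.99%). In ventral DG *Igfbp6* was the single member past them, beside 0.241% (no overlap for 2.45%). Without SH replicate 1 (log2 fold change 0.54) or SH replicate 4 (0.55) it was not past the limits in ventral DG, whereas *Igfbp5* (-0.30) was past them without SH replicate 1.

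The dorsal libraries of *Igfbp7* were at 12.1 to 13.8 CPM for SH and 14.4 to 19.3 CPM for EE, and the ventral ones at 13.1 to 15.4 CPM for SH and 15.5 to 19.98 CPM for EE. Each EE library was above each SH library of its pole, at log2 fold changes of 0.33 (SE 0.086) and 0.31 (SE 0.084). EE and SH did not overlap for 3.99% of all tested genes in dorsal and 2.45% in ventral DG. *Igfbp7* was not past the limits at either pole. Beside it, the summed level of 6 mural cell markers was 172 to 192 CPM in dorsal SH, 182 to 201 in dorsal EE, 182 to 213 in ventral SH and 200.4 to 237 in ventral EE, and that of 6 endothelial markers was 171 to 201, 178 to 206, 164 to 197 and 179 to 210 CPM. Their part in the values of *Igfbp7* was not tested. *Igfbp3* had a log2 fold change of 0.35 (SE 0.098) in dorsal DG and 0.05 (SE 0.080) in ventral DG, and *Igf2* had 0.08 (SE 0.12) and 0.31 (SE 0.11). For *Igf1*, *Igf1r*, *Igf2r*, *Igfbp2* and *Igfbp4* the log2 fold changes lay between -0.15 and 0.15 at both poles, and EE and SH libraries overlapped.

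**Figure D5:**
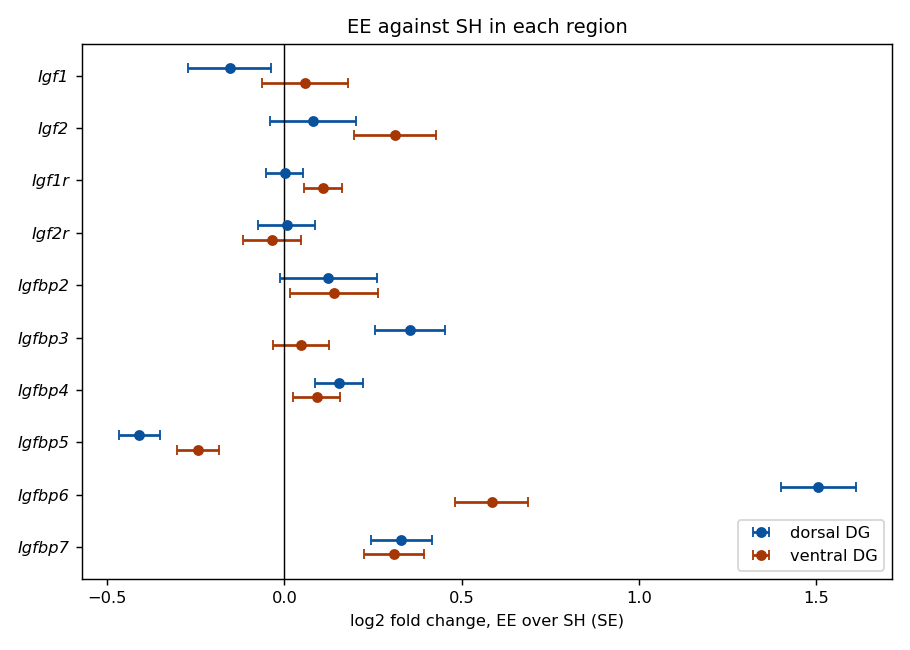
Log2 fold change of EE over SH for the 10 genes in dorsal (blue) and ventral (brown) DG, with the standard error as bars. *Igfbp6* lies far to the right, at 1.51 in dorsal and 0.59 in ventral DG, and *Igfbp5* to the left, at -0.41 and -0.24.

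The difference between the housing effects of the poles was 0.92 (SE 0.15) on the log2 scale for *Igfbp6*, which is 1.89-fold, and *Igfbp6* was the single gene past the limits in that comparison (0.00587% of all tested genes), a count from which nothing is read because the housing response chose the set. With the pool as a block 2 genes were past them. In edgeR no gene was past them when any 1 of the 9 pools was left out (425 to 643 genes at an unadjusted p under 0.05), and the value for *Igfbp6* then lay between 0.87 and 0.99. For *Igfbp5* the difference was -0.17 (SE 0.083) and for *Igfbp3* it was 0.31 (SE 0.13).

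The genes whose profile over 18 libraries lay nearest to that of *Igfbp6*, by the root mean square distance of standardized log2 CPM among 12201 genes, were *Rgs4*, *Srxn1*, *Npy*, *Serinc2* and *Sorcs3*, at distances of 0.359 to 0.624. *Rgs4*, a regulator of G protein signaling, had means of 119.6 CPM in dorsal SH, 165 in dorsal EE, 131 in ventral SH and 160.0 in ventral EE. *Npy*, the neuropeptide Y gene, was also on the list of 6 inhibitory interneuron markers and had means of 30.7, 46.6, 27.2 and 35.8 CPM. Because nearness to *Igfbp6* picked these genes, nothing is read from the housing rise they share with it. The genes nearest to *Igf2* were *Slc4a2*, *Otx2*, *1500015O10Rik*, *Mmp15* and *Rsph1*, at 0.274 to 0.397, of which *Otx2* was also on the choroid plexus list.

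Of 51 other genes of the pathway, 41 were tested, with 9 of them higher at the dorsal and 4 at the ventral pole, or 13 of 41 beside 32.7% of all tested genes. Their median regional log2 fold change was 0.15, against -0.0046 for all tested genes. The median size of the difference was 0.17, below the 0.19 of all tested genes. *Ins2*, *Gh*, *Igfals*, *Igfbp1*, *Insrr*, *Irs4*, *H19*, *Igf2bp1*, *Igf2bp2* and *Igf2bp3* were under the count limit.

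*Igfbpl1*, a binding protein relative expressed in newborn neurons, had a log2 fold change of 1.09 (SE 0.10, edgeR adjusted p = 6.72e-09), with means of 7.71 CPM in dorsal SH and 3.73 in ventral SH. *Pappa2* (1.06, SE 0.12, edgeR adjusted p = 1.59e-07) and *Pappa* (0.94, SE 0.088, edgeR adjusted p = 6.40e-09), the pappalysin proteases that cut binding proteins, were higher in dorsal DG. *Stc1*, which encodes an inhibitor of these proteases, was higher in ventral DG (-0.98, SE 0.073, edgeR adjusted p = 1.48e-10), whereas *Stc2*, another inhibitor, was higher in dorsal DG (0.45, SE 0.079, edgeR adjusted p = 4.87e-05). Of the 5 listed proteases and inhibitors that act on binding proteins these 4 passed the limits, and *Htra1* (-0.24) missed the fold limit.

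Further along the pathway, *Foxo3*, a transcription factor that AKT holds out of the nucleus, was higher in dorsal DG (0.59, SE 0.041, edgeR adjusted p = 3.87e-11). Of the 24 genes of the PI3K, AKT and mTOR group, 4 passed the limits, each with the higher level at the dorsal pole, beside 15.9% of all tested genes, and the other 20 did not pass them. The adaptor *Irs1* was higher in dorsal DG by the same limits, and *Shc3* (-0.38, SE 0.085, edgeR adjusted p = 0.000634), the growth hormone receptor gene *Ghr* (-0.30, SE 0.058, edgeR adjusted p = 0.000144) and *Airn* (-0.43, SE 0.18, edgeR adjusted p = 0.0432) in ventral DG. *Airn* is the noncoding RNA antisense to *Igf2r*, and its mean was under 1 CPM in each group.

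With housing, *Pappa* was the single gene of the 41 past the limits, in dorsal DG, beside 0.634% of all tested genes. It was at 5.02, 4.15, 4.31 and 4.84 CPM in dorsal SH and at 6.63, 5.30, 7.64, 7.46 and 7.20 CPM in dorsal EE, a log2 fold change of 0.58. The groups did not overlap, as for 3.99% of all tested genes. In ventral DG its log2 fold change was 0.21. *Pappa2* had a similar log2 fold change in dorsal DG (0.59) and -0.13 in ventral DG, and *Eif4ebp1* had 0.51 and 0.53. Neither gene was past the limits for housing. Both were low, with means of 1.57 and 2.37 CPM in dorsal SH and dorsal EE for *Pappa2* and of 1.53 and 2.17 CPM for *Eif4ebp1*.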

How the data were processed

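RNA-Seq of total RNA from dorsal and ventral DG was used (20 samples; 18 in the fits). The methylation samples of the series were not analysed here. Per the labels, the authors trimmed reads with Trim Galore 0.4.0 and processed them with STAR 2.5.1b and RSEM 1.2.30 on mm10. They deposited a fragment count per gene without normalization, of which the reverse-strand count was used. The authors also deposited per gene, in a second table, an expected count (estimated count) as well as TPM and FPKM. The expected count was rounded for an alternative, and FPKM was not used for a result. Genes under 300 bases took 11.8% to 27.9% of the TPM of a library. For this reason TPM only orders genes in the report, within libraries and groups and by medians over the 18 libraries. These medians mix libraries with different shares of short genes. Otherwise TPM enters only the alternatives and the choice of the 12201 genes searched for the nearest profiles.

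Genes with a count above 10 in at least 2 samples (17040) were fitted with TMM and the quasi-likelihood test of edgeR 4.0.16 in R 4.3.3, with 4 group means. Called genes had a fold change of 20% or more at a Benjamini-Hochberg FDR under 0.05. Standard errors came from the fold change and its F statistic. Gene coordinates came from Gencode (GRCm38). The members and lists were chosen with earlier results of these data known. Named genes were the 10 members, up to 4 called pathway genes with the largest regional difference in each direction, each pathway gene called for housing, and the 5 genes nearest in profile to *Igfbp6*, *Igf2* and *Igf1*, of which the last are not reported here. *Stc2*, *Irs1*, *Htra1* and *Eif4ebp1* were named outside this rule, after their values were seen.

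Replicates of a group differed by more than sampling noise in 32 of 32 pairs. Dorsal and ventral libraries of a number come from the same pool of mice, by the study's description, and their deviations correlated at a mean of 0.0827 over 9 pairs (-0.0840 to 0.189). Alternatives tried were DESeq2 1.42.0, the likelihood ratio test, limma 3.58.1 on log2(TPM + 1) and log2(TPM + 0.1), RLE factors, other count filters, other limits, unstranded and expected counts, all 20 samples, a block, and each pool left out. The fits were tested on simulated counts.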

Additional observations from a re-analysis of the deposited data

Results flagged for a closer look

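The housing effect on *Igfbp6* differed between the poles, by 0.92 on the log2 scale (SE 0.15), and was the larger in dorsal DG. This is a description, since the set was chosen on this response. Each EE library was above each SH library at both poles. In the 40 sets made of 1 member and 1 group, a search for a library apart from its group in CPM flagged 0. Even so, ventral SH replicate 5 was above the rest of its group for *Igf2* (33.2 CPM, the others at 23.8 to 25.8). It was also above them for *Igfbp2* (41.8 CPM, the others at 29.0 to 33.3).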

How the results depend on the processing

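*Igf2*, *Igfbp2*, *Igfbp3* and *Igfbp5* kept their regional direction and passed the limits under each of the alternatives run. Of 229 regional values of the members under alternatives, 210 kept their direction and side of the limits, 15 passed limits they had missed and 4 turned. The 4 were *Igfbp4* (0.12 with log2(TPM + 1), 0.14 with log2(TPM + 0.1)) and *Igfbp7* (0.046 and 0.053) in limma. These scales moved the median of all genes by 0.09 and 0.16 between regions and by -0.17 and -0.23 with EE in dorsal DG, and their regional calls split into 2783 dorsal and 560 ventral, and 3900 dorsal and 1030 ventral genes. The regional count was 3343 with log2(TPM + 1), 3448 with a TPM limit and 9949 without the fold limit, which passed 7 members. It was 5162 to 5607 without 1 pool, with 4 to 6 members. In dorsal DG, 181 genes were called for housing by the likelihood ratio test, 4 and 3 by limma on TPM, where *Igfbp5* missed the limits, and 70 to 109 without 1 pool (70 without SH replicate 4). *Igfbp7* also passed by DESeq2, the likelihood ratio test and without the count filter, and *Igfbp3* by the likelihood ratio test. Nothing is read from the housing calls of members at either pole, because the housing response chose the set. In ventral DG, 87 genes were called by the likelihood ratio test, 76 by DESeq2, 78 without the count filter, 0 (501 at unadjusted p under 0.05) and 2 by limma on TPM, where *Igfbp6* missed the limits, and 18 to 50 without 1 pool (24 without SH replicate 2, 18 without SH replicate 4, 26 without EE replicate 3). For the difference between poles, edgeR called 0 genes without any 1 pool (425 to 643 at unadjusted p under 0.05) and limma on TPM called 0 (245 and 224), against 1 by DESeq2. The cause of these changes was not tested.

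EE and SH share replicate numbers but not mice. Deviations of same-numbered libraries correlated at a mean of 0.126 over 8 pairs (0.0815 to 0.175, 7 over 0.1) and of other-numbered ones at -0.0314 over 32, and 9 of 16 libraries correlated best with their own number. This is a hint of pairing, but not every pair was over 0.1 and the numbers were not taken as pairs. With the number as a replicate block, 172 genes were called in dorsal and 87 in ventral DG, and with the pool as a replicate block 5611 between regions and 2 for the difference between poles. The block changed no call of a member. Low counts limit what depth can show for *Igfbp6* (113 to 390 fragments a library) and *Igf1* (135 to 253).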

Other observations

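In the 2 libraries of SH replicate 3, which were left out, *Igfbp6* had 3.93 CPM at the dorsal pole and 6.24 CPM at the ventral pole. *Igfbp5* was at 255 CPM in the dorsal one, below the other 4 dorsal SH libraries and above the 5 dorsal EE libraries, and at 167 CPM in the ventral one.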
